A study of Mus musculus with 17 samples.

Results

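The genes described here are 41 genes of DNA replication and deoxynucleotide synthesis, taken from 17097 genes that the arrays measured with a probe set naming 1 gene. They were chosen by symbol. Of them 11 belong to helicase loading at origins, including the helicase subunits Mcm2 to Mcm7 and Gmnn, an inhibitor of loading. Another 6 activate the helicase, 5 form the sliding clamp and its loader, and 9 are DNA polymerase and primase subunits. A further 4 bind single-stranded DNA or mature Okazaki fragments, 4 make deoxynucleotides, and the last 2 are Ung, a uracil-DNA glycosylase, and E2f1, a transcription factor of the G1/S transition. Each gene is represented by its probe set with the highest mean over the 17 arrays, and all 41 passed the filter on dim genes, so none was lost.

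Affymetrix mouse arrays were read in 5 groups, and every value below is on the log2 scale. All mice were C57/Bl6 with a wildtype genotype. The leukemias arose in recipients 4 to 8 weeks old that had been irradiated with 4.5 to 6 Gy and injected with cells carrying Myc and Bcl2. The transformed cells were marrow LSK cells, a stem and progenitor population (3 arrays), early thymic progenitors negative for CD4 and CD8 at the second stage (DN2, 5 arrays) or granulocyte-macrophage progenitors (GMP, 5 arrays). Myeloid spleen cells were then sorted as CD11b+ Gr1+ and CD3, CD4 and CD8 negative, a gate that names no donor marker. The healthy groups were thymic DN2 cells (2 arrays) and marrow GMP (2 arrays), which carry no transgene by their labels. The labels name neither vector nor promoter for the transgenes. Nothing in the labels says that replicates came from separate mice, so each p-value measures only the spread between these samples, and the number of arrays limits the precision.

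Replication starts in G1, when the origin recognition complex, Cdc6 and Cdt1 load the Mcm2 to Mcm7 helicase onto DNA. In S phase Cdc45 and the GINS complex switch the helicase on, primase and DNA polymerase alpha start each strand, and the clamp Pcna, placed by the RFC loader, holds polymerases delta and epsilon on the template. Ribonucleotide reductase (Rrm1 and Rrm2), thymidylate synthase (Tyms) and thymidine kinase (Tk1) supply the precursors. Many of these genes are transcribed in late G1 through E2F factors, so in bulk RNA their level can follow how many cells are dividing. Fewer dividing cells and less RNA per dividing cell cannot be told apart here.

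E2F factors bind short T-rich and GC-rich words, so the promoters are shown before the values. RefSeq windows of 300 bases (250 before a start and 50 after it, build GRCm38.p6) were held for 33 of the 41 genes. The start used was not always the outermost start of the gene. The gene starts of Cdc6 and Ung are at 98907709 and 114130366. The Cdc6 window below thus lies wholly inside the gene, and the start used for Ung lies after the gene start. The words TTTCCCGC, TTTGGCGC, TTTCGCGC and TTTGCCGC were searched on both strands, and overlapping matches were counted separately. At least 1 of them was in the window of 14 of the 33 genes (42.4%), against 2.6% of 27025 genes with a window. CCAAT was in 57.6% of the members and 41.1% of all genes, CACGTG in 15.2% and 8.1%, and TTTGAA in 15.2% and 20.2%. These are matches of letters in a fixed window, not measured binding. Below are 4 genes with a match, in capitals, and 2 genes that moved far in some comparisons and held none of the 4 words in this window. Mcm6 is shown because it held the most matches, 3, of which the first and second overlap; Cdc6 because it had the largest fall; Mcm3 because it was low in every leukemia; and Cdt1 because it was the brightest gene of its role. Mcm6 lies on the minus strand at chr1:128359656-128359955, Mcm3 on the minus strand at chr1:20820263-20820562, Cdc6 on the plus strand at chr11:98907901-98908200 and Cdt1 on the plus strand at chr8:122567765-122568064. Rrm2 is on the plus strand at chr12:24708004-24708303 and Ung on the plus strand at chr5:114130185-114130484. All are written 5′ to 3′ on the strand of the gene.
Mcm6: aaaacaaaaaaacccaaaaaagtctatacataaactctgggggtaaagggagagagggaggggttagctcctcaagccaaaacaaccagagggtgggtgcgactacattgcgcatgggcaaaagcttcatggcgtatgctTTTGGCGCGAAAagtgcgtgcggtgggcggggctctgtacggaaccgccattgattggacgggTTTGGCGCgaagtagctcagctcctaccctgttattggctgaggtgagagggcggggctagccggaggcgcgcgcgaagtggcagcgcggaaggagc
Mcm3: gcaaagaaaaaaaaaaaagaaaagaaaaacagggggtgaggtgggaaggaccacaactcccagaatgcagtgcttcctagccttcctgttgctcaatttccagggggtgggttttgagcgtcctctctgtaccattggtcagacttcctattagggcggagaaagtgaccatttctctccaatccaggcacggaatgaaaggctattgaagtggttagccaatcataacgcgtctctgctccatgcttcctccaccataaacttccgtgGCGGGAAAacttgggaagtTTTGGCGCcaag
Cdc6: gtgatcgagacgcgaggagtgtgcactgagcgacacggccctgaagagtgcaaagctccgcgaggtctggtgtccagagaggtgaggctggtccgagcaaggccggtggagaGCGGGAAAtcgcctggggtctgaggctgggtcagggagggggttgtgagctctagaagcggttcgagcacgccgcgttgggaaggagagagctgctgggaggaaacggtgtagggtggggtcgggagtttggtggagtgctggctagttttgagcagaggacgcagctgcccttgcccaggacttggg
Cdt1: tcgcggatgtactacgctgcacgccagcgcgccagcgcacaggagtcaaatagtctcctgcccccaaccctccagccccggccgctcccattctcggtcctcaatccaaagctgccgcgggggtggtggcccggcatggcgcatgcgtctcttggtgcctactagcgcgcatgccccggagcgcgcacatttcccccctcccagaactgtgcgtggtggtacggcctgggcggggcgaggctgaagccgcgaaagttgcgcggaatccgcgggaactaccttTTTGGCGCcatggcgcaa
Rrm2: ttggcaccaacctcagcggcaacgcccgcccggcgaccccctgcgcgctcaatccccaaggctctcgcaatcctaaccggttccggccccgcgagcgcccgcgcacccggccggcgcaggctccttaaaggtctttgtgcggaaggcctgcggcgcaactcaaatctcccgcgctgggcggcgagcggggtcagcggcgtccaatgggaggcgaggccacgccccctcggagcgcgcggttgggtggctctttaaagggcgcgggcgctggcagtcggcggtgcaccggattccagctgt
Ung: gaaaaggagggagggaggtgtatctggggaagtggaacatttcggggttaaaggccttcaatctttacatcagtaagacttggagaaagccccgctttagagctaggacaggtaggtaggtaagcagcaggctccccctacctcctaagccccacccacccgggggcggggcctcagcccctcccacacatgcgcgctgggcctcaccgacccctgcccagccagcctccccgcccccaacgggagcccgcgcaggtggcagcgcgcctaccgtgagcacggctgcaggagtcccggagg
In Mcm3 the words began at bases 270 and 289 of the window and in Cdt1 at base 283, inside the last 50 bases, whereas in Cdc6 the word began at base 113 and in Mcm6 the 3 words began at bases 141, 145 and 204.

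Some arrays stood apart from their labels, and counts of calls that rest on them are also given without them. Myc, which the labels name, was at 5.48 to 6.49 in all leukemia arrays and at 10.10 to 10.65 in the healthy arrays. Whether its probe set reads the transgene was not tested. Mycn, a Myc family gene, was at 12.82, 4.91 and 4.22 in the LSK-derived arrays 1 to 3, at 11.58 to 12.10 in the DN2-derived, 12.06 to 13.15 in the GMP-derived and 3.96 to 4.58 in the healthy arrays. Bcl2 followed it, at 11.30, 6.75 and 5.27 in the LSK-derived arrays. Itgam, which encodes CD11b, was at 7.17, 3.47, 7.38, 3.24 and 3.42 in the DN2-derived arrays 1 to 5, while Cd3e, a T-cell receptor subunit that the sort excludes, was at 7.79 to 9.06 there and at 5.00 to 5.56 in all other arrays. The median of all values, 3.83, marks background. Of 9 measured T-cell markers 8 had a DN2-derived mean above it (mean of the list 8.15 to 8.59 per array), Cd4 being at or below it, and all 7 NK-cell markers did (8.35 to 10.99). All 7 NK-cell markers also had an LSK-derived mean above it (5.54 to 7.31), against 0 in the GMP-derived (3.32 to 3.51). The 8 B-cell markers averaged 5.59 to 5.96 in the LSK-derived arrays, with Pax5, Ebf1 and Blk at or below background. They averaged 3.76 to 5.06 in the DN2-derived and 3.52 to 3.73 in the GMP-derived arrays. The 9 neutrophil markers averaged 3.64 to 5.19 in the DN2-derived arrays, with Mmp8 and Mmp9 at or below background. They averaged 11.25 to 13.23 in the LSK-derived and 11.95 to 13.01 in the GMP-derived arrays. In healthy GMP they averaged 7.08 to 7.20 and in healthy DN2 3.55 to 3.73. The 8 monocyte and macrophage markers all had a DN2-derived mean above background, but array by array their mean was 7.77, 3.91, 5.95, 4.68 and 4.54, against 8.07 to 8.70 in the GMP-derived and 6.88 to 7.19 in healthy GMP. The T-cell and neutrophil markers of the DN2-derived arrays thus went against the sort, and the part of these cell types in any difference below was not tested. Healthy GMP had all 8 GMP markers above background (11.61 to 11.66) and healthy DN2 all 7 DN2 markers (9.03 to 9.21). The GMP markers averaged 6.83 to 10.00 in the GMP-derived arrays and the DN2 markers 5.92 to 6.26 in the DN2-derived. The leukemia cells came from spleen and the healthy cells from thymus or marrow. Against healthy cells, tissue and cell stage therefore cannot be told apart from leukemia status.

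Both kinds of leukemia with a healthy counterpart carried less replication RNA than that counterpart. The mean of the 41 genes was 9.80 ± 0.01 (SD, n = 2) in healthy DN2 and 9.75 ± 0.05 (SD, n = 2) in healthy GMP. It was 8.14 ± 0.55 (SD, n = 5) in the DN2-derived, 8.53 ± 0.60 (SD, n = 5) in the GMP-derived and 7.90 ± 0.25 (SD, n = 3) in the LSK-derived leukemias. LSK-derived array 1 alone was at 8.06, and DN2-derived arrays 1 and 3 averaged 8.54. For 24 of the 41 genes each of the 13 leukemia arrays lay below each of the 4 healthy arrays, a pattern seen in 5.76% of the 11625 genes tested. The 24 were Gmnn, Mcm2 to Mcm7, Mcm10, Gins1, Rfc2 to Rfc5, Pola1, Pola2, Prim1, Pold1, Pole, Fen1, Lig1, Rrm1, Rrm2, Tyms and Ung. The healthy means were above all 3 leukemia means for 38 genes (21.0% of all genes), the exceptions being Cdc45, Rpa1 and Rpa2.

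**Figure D1:**
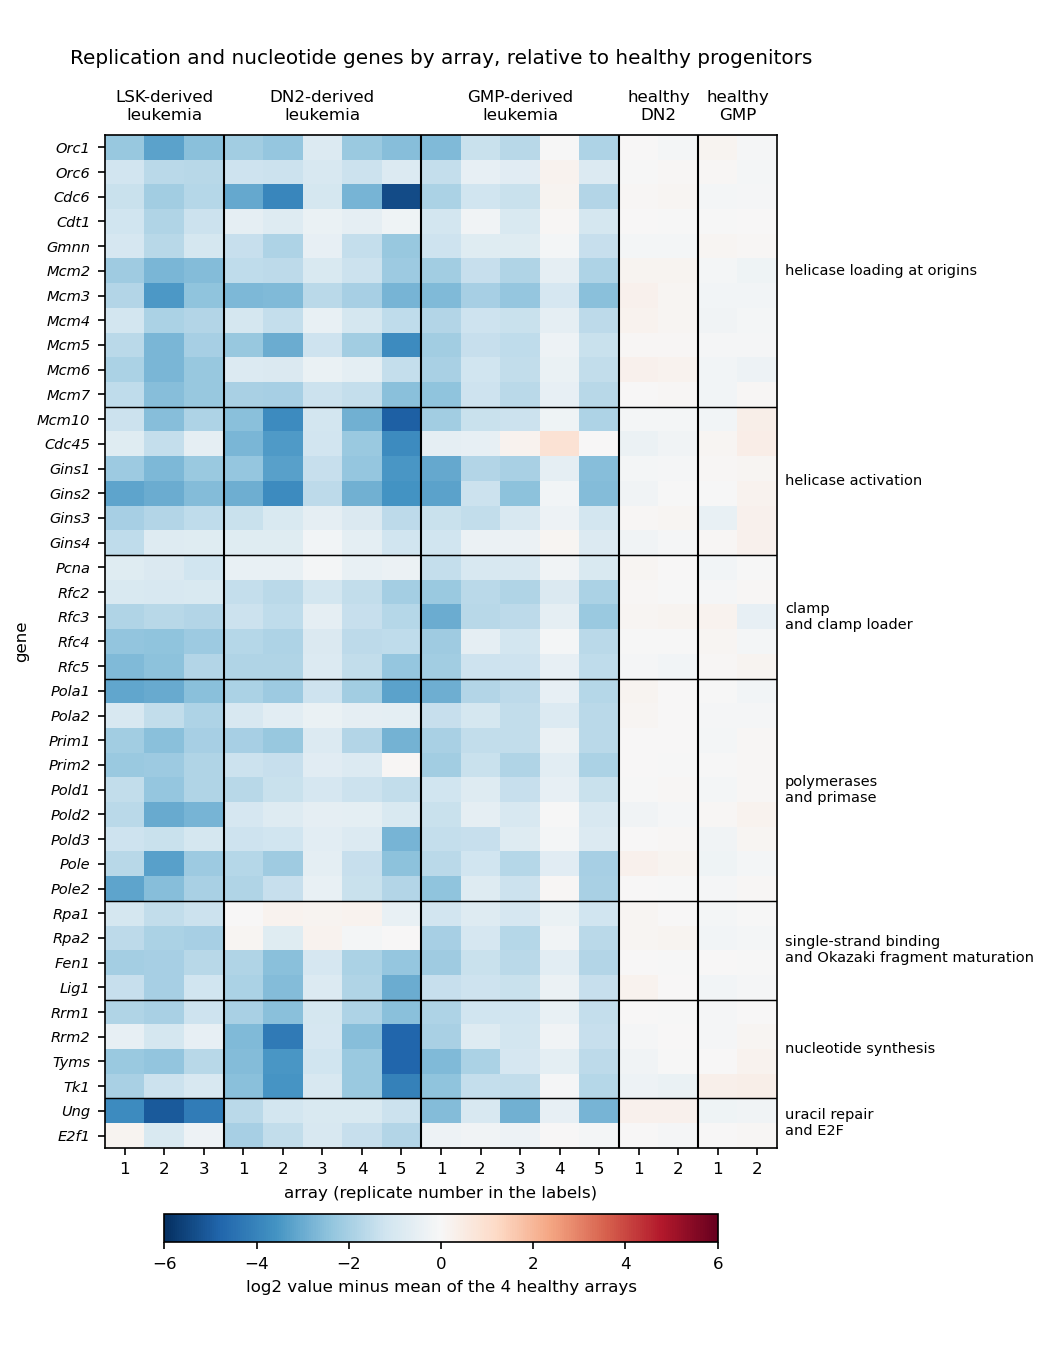
Colour gives the log2 value of each of the 41 genes (rows, grouped by role) in each of the 17 arrays (columns, by group) minus the mean of the 4 healthy arrays. Most cells of the leukemia arrays are blue, the palest leukemia column is GMP-derived array 4 (member mean 9.47), and Rpa1 and Rpa2 stay pale across the DN2-derived arrays.

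In the DN2-derived leukemias against healthy DN2 cells all 41 differences were negative, with a median of -1.54 (all genes tested 0.01). The fit called 32 of the 41 genes lower (13.7% of all genes tested) and 0 higher (9.49%), where called means a Benjamini-Hochberg adjusted p under 0.05 in limma. For 37 of them every leukemia array was below both healthy arrays (26.5% of all genes). The call rate rests on the healthy arrays: without either one of the 2, 9 genes stayed called (Mcm2, Mcm3, Mcm5, Rfc2, Pold1, Fen1, Lig1, Rrm1 and E2f1), although the median difference over leave-one-out fits stayed between -1.66 and -1.42. Without DN2-derived arrays 2, 4 and 5, in which Itgam was low, 11 were called and the median was -1.37; without arrays 1 and 3 it was 31 and -1.74.

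Helicase loading genes fell as a class, and 10 of 11 were called. Cdc6, the ATPase that recruits the helicase to origins, was at 6.59, 5.77, 8.64, 6.89 and 4.33 in DN2-derived arrays 1 to 5 and at 9.74 and 9.79 in healthy DN2. All 5 leukemia arrays were lower, array 5 was close to background, and the log2 difference was -3.32 ± 0.80 (SE), 9.99-fold (limma adjusted p = 0.00715). Mcm3, a helicase subunit, was at 7.14, 7.18, 8.23, 7.82 and 7.05 against 10.06 and 9.93. Its difference of -2.51 ± 0.46 (limma adjusted p = 0.00106) was the steadier of the pair, with an SD of 0.52 against 1.58 for Cdc6. Mcm6 was at 11.42, 11.36, 11.82, 11.64 and 10.77 against 12.46 and 12.44, the smallest difference of the ring (-1.05), and Mcm5 had the largest (-2.54). The origin recognition subunits Orc1 and Orc6 differed by -1.96 and -1.15, and Gmnn, the Cdt1 inhibitor geminin, by -1.37, all called. Cdt1, the loading factor that geminin blocks and the brightest gene of the class, was at 11.47, 11.26, 11.61, 11.46 and 11.77 against 12.04 and 12.01. The groups did not overlap, but the difference of -0.52 ± 0.29 did not pass (limma adjusted p = 0.229).

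Among the 6 helicase activation genes 5 were called lower. Mcm10, needed to start unwinding, was at 6.42, 5.15, 7.82, 6.04 and 4.03 in the leukemia and at 8.81 in both healthy arrays, a difference of -2.92 ± 0.74 (limma adjusted p = 0.00996). Cdc45, the helicase cofactor, was at 5.54, 4.88, 7.14, 6.07 and 4.51 against 7.95 and 8.10. Gins1 was at 7.70, 6.76, 8.61, 7.67 and 6.53 against 9.90 and 9.91, and Gins2 at 6.33, 5.50, 7.66, 6.35 and 5.65 against 9.06 and 9.23. In all 4 genes array 3 was the highest leukemia array and still below both healthy arrays. Gins4 had a lower mean too but was not called. It was at 8.56, 8.54, 9.13, 8.70 and 8.08 against 9.07 and 9.18, so array 3 overlapped the healthy pair. Its difference was -0.52 ± 0.33 (limma adjusted p = 0.292). Gins1 to Gins4 encode the 4 subunits of 1 complex, and their differences ran from -2.84 (Gins2) to -0.52 (Gins4).

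The 4 clamp loader subunits among the members fell by nearly the same amount, with differences from -1.54 to -1.44. Rfc2 was at 9.10, 8.90, 9.45, 9.07 and 8.50 against 10.59 and 10.50, and Rfc4 at 8.40, 8.27, 9.28, 8.57 and 8.62 against 10.13 and 10.12. Every leukemia array of both genes was lower than healthy DN2 (Rfc2 -1.54 ± 0.29, limma adjusted p = 0.0013; Rfc4 -1.49 ± 0.41, 0.0162). Pcna, the clamp they load, was at 12.36, 12.39, 12.69, 12.39 and 12.45 against 12.93 and 12.85, a difference of -0.43 ± 0.24 that did not pass (limma adjusted p = 0.224). At values this bright an array can compress differences, which was not tested.

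Polymerase and primase genes were called lower in 6 of 9 cases. Pola1, the catalytic subunit of polymerase alpha, was at 7.78, 7.54, 8.48, 7.61 and 6.47 against 9.85 and 9.74 (-2.22 ± 0.52, limma adjusted p = 0.00592). Prim1, the catalytic primase, was at 8.33, 8.08, 9.52, 8.60 and 7.50 against 10.37 and 10.34 (-1.95 ± 0.44, 0.00521). Their partner subunits moved less: Pola2 was at 8.09, 8.43, 8.63, 8.49 and 8.46 against 9.19 and 9.09 (-0.72 ± 0.24, limma adjusted p = 0.0423), and Prim2 differed by -0.82 ± 0.39 (0.152). Pold1, Pole and Pold3 were called, at -1.38, -1.87 and -1.38. Other probe sets of Pold3 gave -0.21 and -1.56. Pold2, at 8.59, 8.81, 9.05, 9.02 and 8.69 against 9.40 and 9.52, and Pole2 did not pass (-0.63 and -1.34).

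The single-strand binding and Okazaki fragment genes divided. Fen1, the flap nuclease, was at 7.92, 7.23, 8.74, 7.87 and 7.41 against 9.79 and 9.72 (-1.92 ± 0.38, limma adjusted p = 0.00184). Lig1, the ligase that seals the fragments, was at 8.59, 7.88, 9.69, 8.70 and 7.53 against 10.71 and 10.52 (-2.14 ± 0.45, 0.00284). Rpa1, the large subunit of replication protein A, was at 11.40, 11.56, 11.52, 11.59 and 10.93 against 11.47 and 11.40, so 3 leukemia arrays lay above both healthy arrays. Rpa2 was at 10.09, 9.28, 10.20, 9.86 and 10.03 against 10.13 and 10.14. Neither difference, -0.04 ± 0.23 for Rpa1 (limma adjusted p = 0.943) and -0.24 ± 0.37 for Rpa2 (0.714), was beyond the spread.

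All 4 deoxynucleotide genes fell. Rrm2, the ribonucleotide reductase subunit made in S phase, was at 7.66, 6.07, 9.33, 7.77 and 5.56 against 10.25 and 10.34, a difference of -3.02 ± 0.73 or 8.09-fold (limma adjusted p = 0.00774). Its partner Rrm1 was at 9.0, 8.40, 9.88, 9.09 and 8.43 against 10.97 and 10.92 (-1.99 ± 0.38, 0.00146). Both were lower in all 5 leukemia arrays, as were Tyms (-2.73) and Tk1 (-2.32). E2f1 was at 5.19, 5.71, 6.23, 5.80 and 5.43 against 7.19 and 7.11 (-1.47 ± 0.27, limma adjusted p = 0.00102). Ung was at 7.70, 8.21, 8.39, 8.41 and 8.00 against 9.55 and 9.57, again without overlap, yet its difference of -1.42 ± 0.57 missed the threshold (0.0879).

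The GMP-derived leukemias against healthy GMP also had 41 negative differences, with a median of -1.21 (all genes tested -0.12). The fit called 22 genes lower (13.1% of all genes) and 0 higher (8.09%), and 31 genes had every leukemia array below both healthy arrays (27.5%). These calls were less firm: 14, 14 and 13 genes were called without GMP-derived array 1, 3 or 5, and 2 (Rfc2 and Pola2) without either healthy array. A fit of these 2 groups alone called 7.

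Gins1 led the fall. It was at 6.94, 8.26, 8.04, 9.47 and 7.47 in GMP-derived arrays 1 to 5 and at 10.09 and 10.11 in healthy GMP, a difference of -2.06 ± 0.57 (limma adjusted p = 0.0198). Gins2 was at 6.06, 7.98, 6.80, 9.08 and 6.65 against 9.24 and 9.48 (-2.05 ± 0.67, 0.0413), and Mcm3 at 7.20, 7.81, 7.51, 8.80 and 7.30 against 9.67 and 9.64 (-1.93 ± 0.46, 0.0089). In each of the 3 genes array 4 came closest to the healthy level without reaching it. Helicase loading genes were called in 5 of 11 cases (Mcm2, Mcm3, Mcm4, Mcm6 and Mcm7), so the ring subunits apart from Mcm5 passed and Orc1, Orc6, Cdc6, Cdt1 and Gmnn did not. Mcm6 was at 10.30, 11.01, 10.76, 11.84 and 10.76 against 12.05 and 11.94 (-1.06 ± 0.35, limma adjusted p = 0.0416). Cdt1 was at 10.91, 11.82, 11.12, 12.08 and 10.98 against 12.01 and 12.03, and its array 4 was above both healthy arrays.

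Rfc2 gave the smallest p among the members, at 8.28, 8.89, 8.74, 9.66 and 8.63 against 10.45 and 10.58 (-1.67 ± 0.29, limma adjusted p = 0.00104). Pcna was at 11.38, 11.87, 11.84, 12.60 and 11.91 against 12.66 and 12.81 and passed here (-0.82 ± 0.24, 0.025). Pola1, at 6.77, 7.96, 8.15, 9.21 and 7.98 against 9.67 and 9.54, and Prim1, at 8.39, 8.87, 8.88, 10.00 and 8.72 against 10.23 and 10.40, differed by -1.59 and -1.34, both called. The polymerase class had 5 of 9 genes called. Fen1, at 7.61, 8.43, 8.12, 9.13 and 8.00 against 9.75 and 9.73, differed by -1.49 ± 0.38 (limma adjusted p = 0.013). Healthy GMP had Rpa1 at 11.24 and 11.35 and Rpa2 at 9.84 and 9.87, and both were called lower in the leukemia (-0.83 and -1.17, limma adjusted p = 0.0187 and 0.0377). Of the nucleotide genes only Rrm1 passed, at 9.08, 9.74, 9.71, 10.47 and 9.50 against 10.85 and 10.96 (-1.21 ± 0.38, limma adjusted p = 0.0361). Tyms, Tk1 and Rrm2 had differences of -1.65, -1.77 and -1.10.

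The genes that fell most in the DN2-derived leukemias were among those that did not pass here. Cdc6 was at 7.76, 8.49, 8.33, 9.84 and 7.93 against 9.56 and 9.62 (-1.12 ± 0.80, limma adjusted p = 0.346), Rrm2 at 8.39, 9.55, 9.23, 10.10 and 8.94 against 10.23 and 10.45 (-1.10 ± 0.73, 0.308) and Mcm10 at 6.80, 7.56, 7.61, 8.66 and 7.06 against 8.76 and 9.25 (-1.47 ± 0.74, 0.173). Rrm2 and Mcm10 were below healthy GMP in every array, while Cdc6 in array 4 was above it. Lig1 was at 9.09, 9.23, 9.14, 10.12 and 9.13 against 10.33 and 10.40, and Gins4 at 8.06, 8.94, 8.92, 9.40 and 8.47 against 9.33 and 9.51. Ung, which removes uracil from DNA, was at 6.69, 8.37, 6.44, 8.84 and 6.50 against 9.05 and 9.08 and passed (-1.70 ± 0.57, limma adjusted p = 0.0462).

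**Figure D2:**
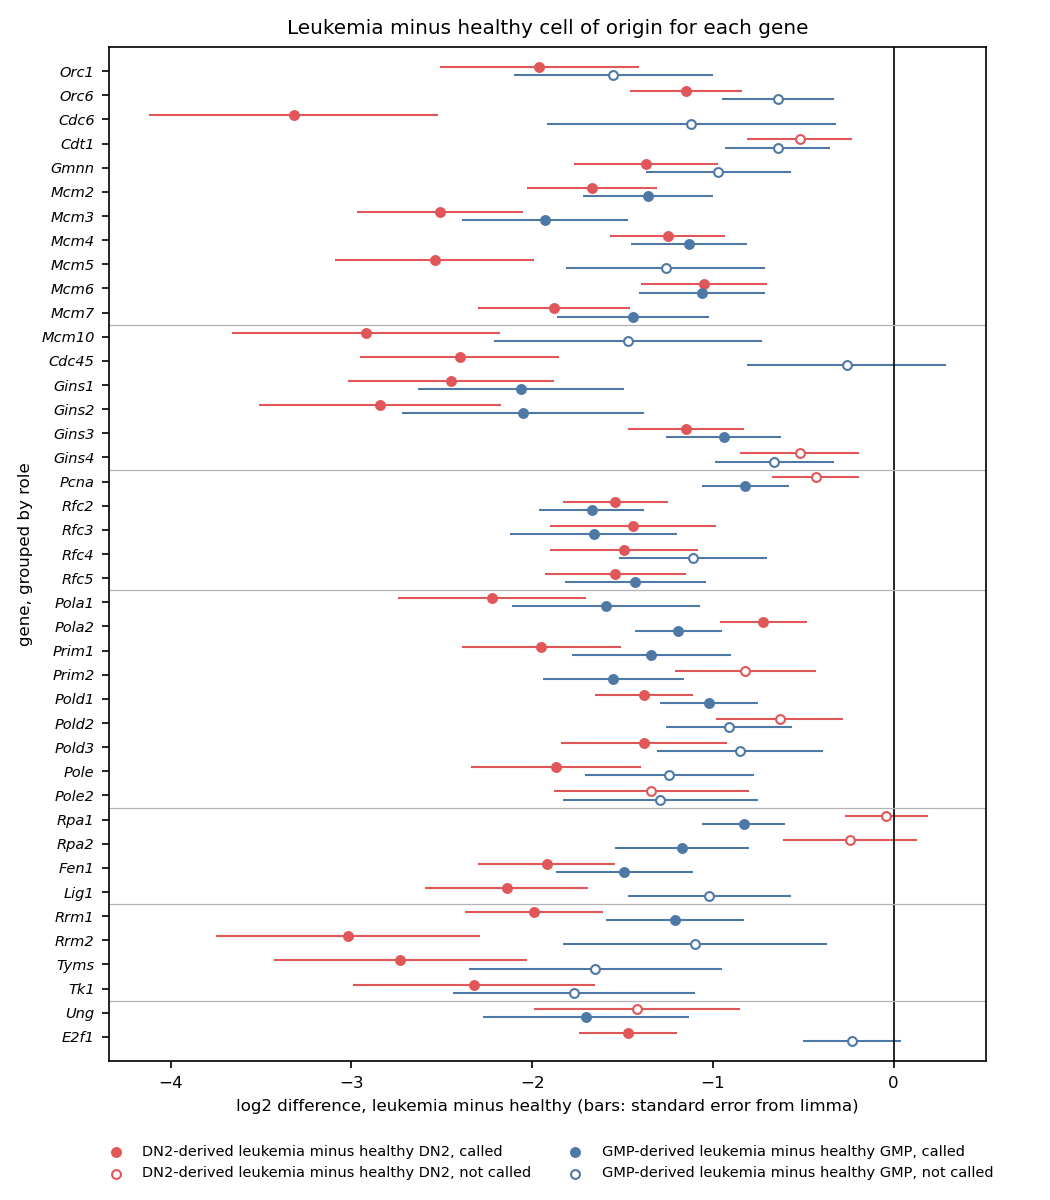
Points give the log2 difference between leukemia and healthy cells for each gene, DN2-derived in red and GMP-derived in blue, with the standard error from limma as bars and filled points for called genes. All points lie below 0, and the widest gaps between the colours are at Cdc6, Cdc45 and Rrm2.

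The difference between these 2 falls was tested as an interaction. It was called for 1 of 41 genes, E2f1, which is below the 6.28% of all genes called in that direction, and the median over the members was -0.40 (all genes 0.09). E2f1 fell in the DN2-derived arrays as above and was at 6.88, 6.97, 6.87, 7.22 and 7.07 in the GMP-derived against 7.19 and 7.27 in healthy GMP (-0.23 ± 0.27, limma adjusted p = 0.586). The interaction was -1.24 ± 0.38 with a limma adjusted p of 0.0451, over alternatives 0.000774 to 0.163, and leaving out any single array of the 4 groups other than DN2-derived array 3 ended the call. Larger but more variable interactions did not pass: -2.20 ± 1.13 for Cdc6 (0.237), -2.14 ± 0.78 for Cdc45 (0.0935) and -1.91 ± 1.04 for Rrm2 (0.266). Cdc45 was at 7.75, 7.83, 8.50, 9.18 and 8.30 in the GMP-derived leukemias, around the 8.44 and 8.71 of healthy GMP.

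Healthy DN2 and healthy GMP were close. Limma called 0 of the 41 genes between them (11.2% of all genes tested), 0 had an unadjusted p under 0.05, and the median difference was 0.04 within a range of -0.69 (Tk1) to 0.50 (Ung). That fit takes its spread mostly from the leukemia arrays. The median SD over the members was 0.05 in healthy DN2 and 0.09 in healthy GMP, but 0.37, 0.55 and 0.59 in the LSK-derived, DN2-derived and GMP-derived leukemias. A fit of the healthy arrays alone called 7 genes, 5 of them higher in DN2 and 2 lower, which is 17.1% of the members against 45.8% of all genes in that fit.

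Replication RNA differed widely between the arrays of the DN2-derived and of the GMP-derived leukemias. In each of these groups 1 array was the highest for most of the 41 genes. The mean over the members was 8.10, 7.82, 8.97, 8.31 and 7.51 in DN2-derived arrays 1 to 5. Array 3 was the highest of the 5 for 36 of the 41 genes, against 25.5% of all genes tested, and array 5 the lowest for 26, against 33.5%. Array 3 lay a median of 0.84 below healthy DN2, array 4 1.47, array 2 1.72, array 1 1.82 and array 5 2.22. Even in array 3, 38 of the 41 genes were below both healthy DN2 arrays, and in each other array 40 were. Spread within the group ran from an SD of 0.13 for Pcna to 1.58 for Cdc6. Mcm10 and Tyms were also wide (1.42 and 1.34) and Cdt1 and Pola2 narrow (0.19 and 0.20).

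The ends of that order were the same for mitosis genes outside the 41, while arrays 1 and 4 changed places. The mean of 19 of them was 7.28, 5.91, 8.92, 7.26 and 5.41, so array 3 was again highest and array 5 lowest. Mki67, the Ki-67 proliferation antigen, was at 9.29, 7.30, 10.60, 8.89 and 7.08. Itgam was high in arrays 1 and 3 only (7.17 and 7.38). Among the members Rpa1 and Ung were highest in array 4. Prim2 was at 7.99, 7.90, 8.62, 8.48 and 9.34, Orc6 at 7.89, 7.88, 8.18, 7.88 and 8.32, and these and Cdt1 were highest in array 5.

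In the GMP-derived leukemias array 4 was the highest of the 5 for all 41 genes (28.9% of all genes), and array 1 the lowest for 33 (33.4%). The member means were 7.86, 8.65, 8.43, 9.47 and 8.23. Mitosis genes did not give the same order, at 8.46, 8.40, 9.20, 9.27 and 8.82, since array 2 was lowest there and second highest for the members. The 8 GMP markers were at 7.35, 9.87, 6.83, 10.00 and 7.18, highest in the arrays 2 and 4 in which the members were highest, with Cd34 at or below background in the group. Ung showed the same pair, at 8.37 and 8.84 in them and 6.44 to 6.69 in the others. What part the GMP markers' source had in these values was not tested.

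**Figure D3:**
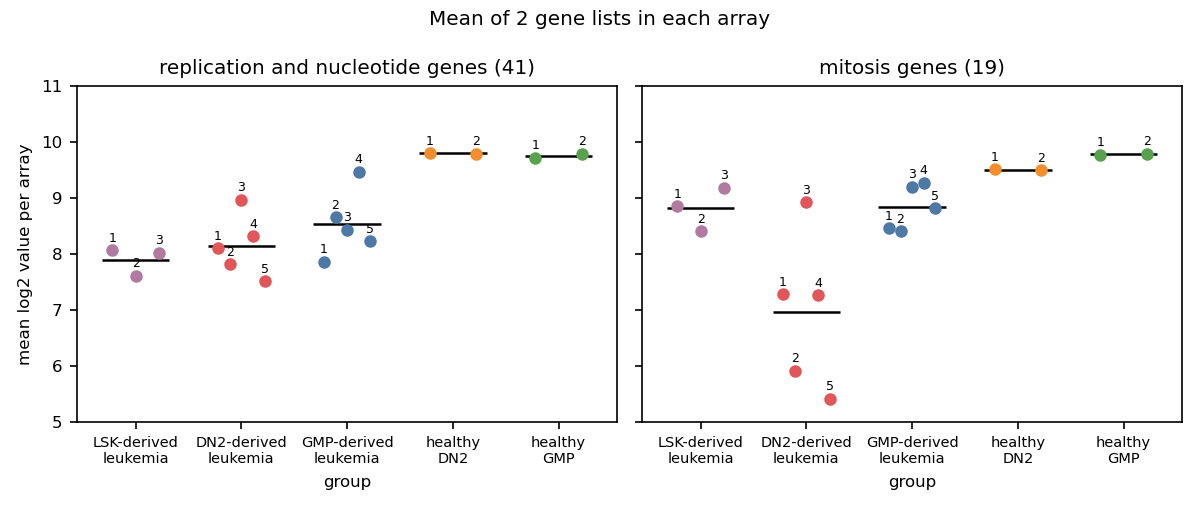
Each point is the mean log2 value of 1 array over the 41 replication and nucleotide genes (left) or 19 mitosis genes (right), numbered by replicate, with bars at the group means. The healthy arrays top the left panel at 9.72 to 9.80, and the DN2-derived arrays spread from 5.41 to 8.92 in the right panel.

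Between the DN2-derived and the GMP-derived leukemias the members split by gene. Of the 41, 4 were called higher in the DN2-derived arrays (21.0% of all genes) and 6 lower (18.8%), with a median difference of -0.34 (all genes 0.03). In 2 genes, Cdc45 and E2f1, each DN2-derived array was below each GMP-derived array (13.6% of all genes). As shares of the members, 9.76% and 14.6%, the calls were no more frequent than among all genes. Without DN2-derived array 3, 3 were higher and 13 lower; without arrays 1 and 3 the counts were the same; and without arrays 2, 4 and 5 the calls were Rpa1 and Rpa2 higher and Cdc45 and E2f1 lower, with a median of -0.01.

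The genes lower in the DN2-derived leukemias were Cdc45, Cdc6, Rrm2, Mcm10, E2f1 and Mcm5. Cdc45 differed by -2.69 ± 0.42, or 6.43-fold (limma adjusted p = 0.000119), between the values given above. Cdc6 differed by -2.03 ± 0.60 (0.0145), and only DN2-derived array 3 reached the GMP-derived range. Rrm2 differed by -1.96 ± 0.55 (limma adjusted p = 0.0107), E2f1 by -1.33 ± 0.20 (0.000103) and Mcm10 by -1.65 ± 0.56 (0.0286). The calls of Mcm5 and Mcm10 did not hold over single arrays: Mcm5 (-1.14 ± 0.41, 0.0395) was lost without any GMP-derived array from 2 to 5 or DN2-derived array 1, 2 or 5, and Mcm10 without DN2-derived array 2 or 5 or GMP-derived array 3 or 4.

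The genes higher in the DN2-derived leukemias were Rpa2, Rpa1, Pola2 and Pcna. Rpa1 was at 10.23, 10.60, 10.36, 10.98 and 10.17 in the GMP-derived arrays, so only DN2-derived array 5 fell in their range, and the difference was 0.93 ± 0.17 (limma adjusted p = 0.000511). Rpa2 was at 7.98, 8.97, 8.27, 9.78 and 8.40 (1.21 ± 0.28, limma adjusted p = 0.00317) and Pola2 at 7.65, 7.98, 7.57, 8.23 and 7.44 (0.65 ± 0.18, 0.0105). Pcna differed by 0.54 ± 0.18 (0.027) and lost the call without DN2-derived array 3 or GMP-derived array 1 or 3. A second probe set gave 0.95 for Rpa1, 1.57 for Rpa2 and -1.98 for Rrm2, in the direction of the first. Of 23 other probe sets of members above background, 18 had the sign of the one used. Those that differed were for Cdt1, Gins3, Mcm2, Orc1 and Pold3, none of them called here.

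Against the LSK-derived leukemias the DN2-derived had more of several replication genes and less of Rrm2, Cdc45 and E2f1. The fit called 12 higher (28.4% of all genes) and 3 lower (19.1%), with a median of 0.35 (all genes 0.11), so the share called higher, 29.3%, was near that of all genes and the share called lower, 7.32%, was below it. In 10 genes every DN2-derived array was above every LSK-derived array (26.0% of all genes), and in 2, Rfc2 and E2f1, below (16.0%). These counts depend on LSK-derived arrays 2 and 3, in which Mycn was low: against array 1 alone, whose spread is assumed to equal that of the other groups, 3 genes (Rpa1, Ung and E2f1) stayed called and the median was 0.10. Without DN2-derived arrays 2, 4 and 5 the fit called 9.

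Ung had the largest difference of any member between the DN2-derived and LSK-derived leukemias. It was at 5.53, 4.28 and 5.11 in LSK-derived arrays 1 to 3 and at 7.70 to 8.41 in the DN2-derived arrays, 3.17 ± 0.49 or 8.99-fold (limma adjusted p = 0.00013). Rpa1, at 10.32, 9.87 and 10.07, and Rpa2, at 8.43, 8.09 and 7.98, were lower than in every DN2-derived array (differences 1.31 ± 0.20 and 1.73 ± 0.33, limma adjusted p = 9.7e-05 and 0.000613). Pold2, a polymerase delta subunit, was at 7.97, 6.57 and 6.83 (1.71 ± 0.30, 0.000359), Mcm6 at 10.33, 9.50 and 9.97 (1.46 ± 0.30, 0.00119) and Cdt1 at 10.83, 10.23 and 10.72 (0.92 ± 0.25, 0.00718). In all 3 the LSK-derived arrays were below the DN2-derived ones. Pola2, at 8.09, 7.56 and 7.21, and Pcna, at 12.08, 11.96 and 11.64, were also higher in the DN2-derived arrays, by 0.80 and 0.56.

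Rrm2 was at 9.84, 9.25 and 9.82 in the LSK-derived arrays, near its GMP-derived level, so the DN2-derived arrays were lower by a difference of -2.36 ± 0.64 (limma adjusted p = 0.00729). Cdc45, at 7.56, 6.85 and 7.78, gave -1.77 ± 0.48 (0.00761) and E2f1, at 7.36, 6.29 and 6.87, gave -1.16 ± 0.23 (0.001). Only for E2f1 did the 2 groups not overlap. DN2-derived array 3 reached the LSK-derived range for the other 2.

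The LSK-derived leukemias against the GMP-derived had 9 genes lower (16.5% of all genes) and 1 higher (10.3%), with a median of -0.54 (all genes -0.06). In 8 genes no LSK-derived array reached the GMP-derived range (14.4%). The largest were Ung (-2.39 ± 0.49, limma adjusted p = 0.00281) and Pold2, at 8.27, 9.07, 8.64, 9.56 and 8.63 in the GMP-derived arrays (-1.71 ± 0.30, 0.00102). Rfc4 was at 7.76, 7.72 and 7.95 against 7.99, 9.60, 9.03, 10.01 and 8.53 (-1.22 ± 0.36, 0.0202). The exception was another clamp loader subunit, Rfc2, at 9.61, 9.55 and 9.62 and higher by 0.75 ± 0.25 (limma adjusted p = 0.0405), a call lost without any 1 of the LSK-derived arrays or without GMP-derived array 1, 2, 3 or 5. The count fell to 2 without LSK-derived array 2, to 5 without array 3, and to 6 without GMP-derived array 2 or 4. With LSK-derived array 1 alone limma called 0, with 7 at an unadjusted p under 0.05 and a median of -0.49, and a fit of these 2 groups alone called 2.

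The remaining genes shown by array were not called between the LSK-derived and GMP-derived leukemias. Their differences ran from -1.20 (Pola1) to -0.37 (Lig1), and for Prim1 every LSK-derived array was below every GMP-derived array. With 3 against 5 arrays, a missed call does not show that the groups were equal. In LSK-derived arrays 1 to 3 Cdc6 was at 8.32, 7.57 and 7.96, Mcm3 at 8.06, 6.37 and 7.39 and Mcm10 at 7.61, 6.34 and 7.04. Gins1 was at 7.80, 7.33 and 7.77, Gins2 at 6.10, 6.28 and 6.64 and Gins4 at 7.77, 8.49 and 8.55. The first 3 genes and Gins1 were lowest in array 2, and Gins2 and Gins4 in array 1. Pola1 was at 6.57, 6.66 and 7.21 and Prim1 at 8.27, 7.82 and 8.33. Fen1 was at 7.73, 7.75 and 8.08, Lig1 at 9.09, 8.52 and 9.30 and Rrm1 at 9.13, 8.96 and 9.67. Array 2 was the lowest of the 3 for 27 of the 41 members (27.6% of all genes).

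**Figure D4:**
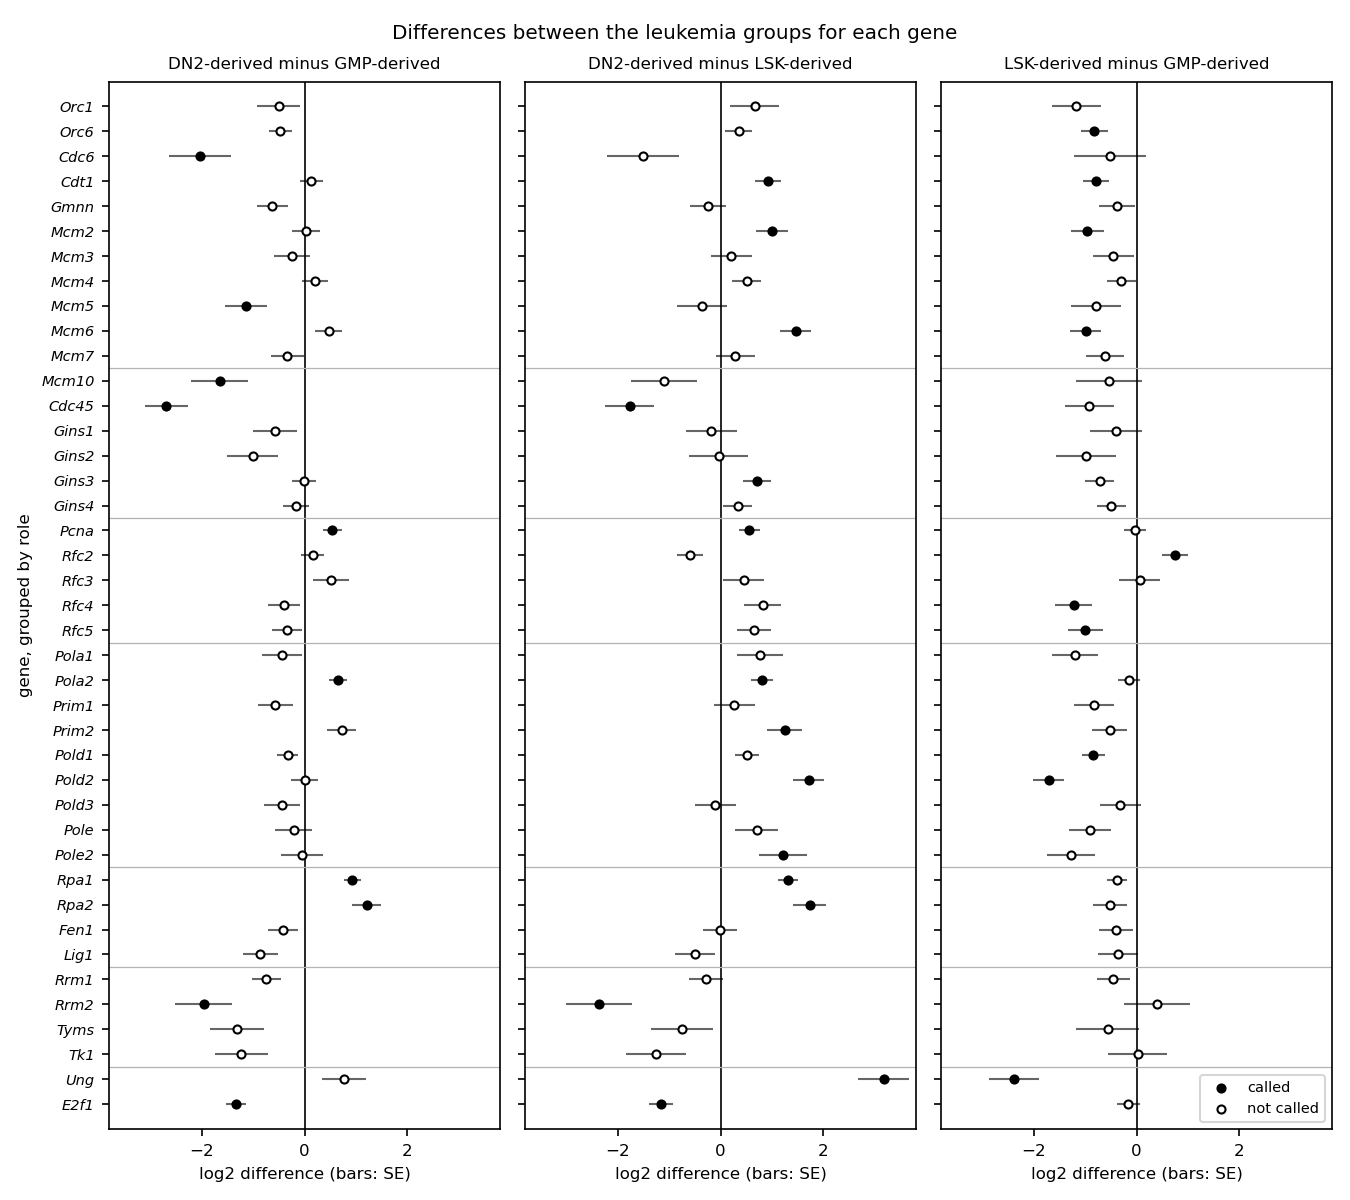
Points give the log2 difference between 2 leukemia groups for each of the 41 genes, with the standard error from limma as bars and filled points for called genes. Ung stands at 3.17 and -2.39 in the panels with the LSK-derived leukemias, and Cdc45 at -2.69 in the panel of DN2-derived minus GMP-derived. Each pair of panels shares a group.

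Across the 5 groups the lowest mean was in the LSK-derived leukemias for 24 of the 41 genes (32.9% of all genes), in the DN2-derived for 15 (18.1%) and in the GMP-derived for 2 (14.7%). The healthy groups were lowest for 0 members. With LSK-derived array 1 alone these counts were 22, 15 and 4, and without DN2-derived arrays 2, 4 and 5 they were 34, 5 and 2. For Rrm2 the order was healthy GMP 10.34, healthy DN2 10.29, LSK-derived 9.64, GMP-derived 9.24 and DN2-derived 7.28, and of the neighbours tested only the GMP-derived and DN2-derived differed (healthy DN2 and the LSK-derived were not compared). For Rpa1 it was healthy DN2 11.44, DN2-derived 11.40, healthy GMP 11.30, GMP-derived 10.47 and LSK-derived 10.09. Of the neighbours tested only healthy GMP and the GMP-derived leukemia differed.

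**Figure D5:**
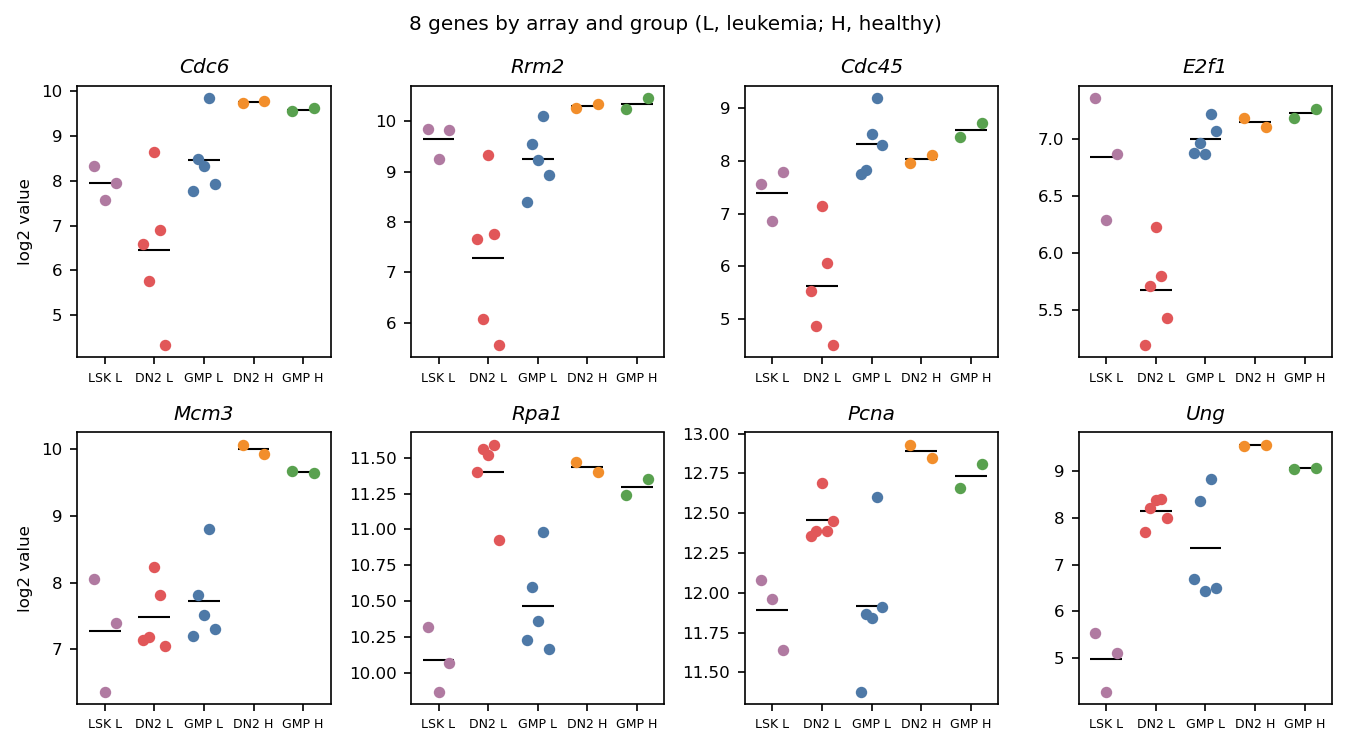
Log2 values of 8 genes in each array (points) by group, with bars at the group means; each panel has its own scale, which does not start at 0. Cdc6, Rrm2, Cdc45 and E2f1 are lowest in the DN2-derived leukemias, whereas Rpa1 and Ung are lowest in the LSK-derived.

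Other genes of the same processes were read from lists of their own. Of 27 further origin, fork and clamp loader genes 16 fell in the DN2-derived leukemias against healthy DN2 and 0 rose (median -0.98). Clspn, the fork protein claspin, had the largest difference (-3.00 ± 0.70, limma adjusted p = 0.00582) and Exo1, a nuclease, the next (-2.80 ± 0.66, 0.00655). In the GMP-derived against healthy GMP 8 fell and 0 rose (median -0.61), led by Timeless at -1.55. These counts compare with 13.7% and 13.1% of all genes called lower, and they rest on few arrays. The first was 8 without DN2-derived arrays 2, 4 and 5 and 8 or 7 without healthy DN2 array 1 or 2. The second was 0 in limma without healthy GMP array 1 or 2 (9 and 9 at an unadjusted p under 0.05), 5 without GMP-derived array 5 and 13 without array 4. Of 6 chromatin assembly genes 4 fell in the DN2-derived, with Uhrf1 at -3.54 and Chaf1b at -1.86, and 2 did so without DN2-derived arrays 2, 4 and 5 or without either healthy DN2 array. Limma called 0 in the GMP-derived, where 2 had an unadjusted p under 0.05.

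Precursor genes outside the 4 members were called about as often as all genes against healthy DN2. Of 17 other deoxynucleotide and pyrimidine genes 2 rose and 2 fell in the DN2-derived leukemias against healthy DN2 (11.8% each way, median -0.10), and of 9 purine synthesis genes 1 fell (11.1%, median -0.12), beside 9.49% of all genes higher and 13.7% lower. Without healthy DN2 array 1 or 2 limma called 0 of both lists, with 4 of the first list at an unadjusted p under 0.05 each time and 1 or 0 of the purine genes. Samhd1, which degrades deoxynucleotides, was higher than in healthy cells in both leukemias (2.12 ± 0.65 and 2.36 ± 0.65, limma adjusted p = 0.028 and 0.0191). The LSK-derived leukemias had the low values here. Of the 9 purine genes 8 were called higher in the DN2-derived than in them (28.4% of all genes), with a median of 1.67. In them 7 were called lower than in the GMP-derived (16.5% of all genes), with a median of -1.50. Ppat, the first enzyme of purine synthesis, differed by 2.42 ± 0.33 (limma adjusted p = 3.69e-05) and -2.01 ± 0.33 (0.000563). Cad, the first enzyme of pyrimidine synthesis, differed by -2.83 between the LSK-derived and GMP-derived. Without LSK-derived arrays 2 and 3 these purine counts were 3 and 1. The purine list mean was 8.68, 7.71 and 7.78 in LSK-derived arrays 1 to 3, lower in the 2 arrays with low Mycn; the part of Mycn in it was not tested.

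Mitosis genes followed another order of groups than the replication genes. All 19 were called lower in the DN2-derived leukemias than in healthy DN2 (13.7% of all genes, median -2.46). Against the GMP-derived 18 were called lower (18.8% of all genes, median -1.91), and against the LSK-derived 18 (19.1%, median -1.93). Limma called 0 between the LSK-derived and GMP-derived leukemias (26.7% of all genes either way, median -0.05, 1 at an unadjusted p under 0.05). It also called 0 between the GMP-derived and healthy GMP (21.2% of all genes, median -0.99, 0 at an unadjusted p under 0.05). The mitosis calls in the DN2-derived rest on arrays 2, 4 and 5: without them 4, 1 and 1 genes were called in these 3 comparisons. They also rest on the healthy arrays, with 3 and 4 called against healthy DN2 without array 1 or 2. Against the LSK-derived leukemias 5 were called without LSK-derived array 3, 11 without LSK-derived array 1 or DN2-derived array 2, and 1 against LSK-derived array 1 alone. Other E2F family genes moved in both directions: E2f8, a repressor, was lower in the DN2-derived than in the GMP-derived leukemias (-3.21 ± 0.54, limma adjusted p = 0.000252) and E2f5 higher (2.78 ± 0.21, 7.95e-08).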

How the data were processed

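The authors' deposited table holds 1 log2 value per probe set and array. RMA and the affy package are named for it in the submitters' processing notes, and their versions are not stated there. RMA corrects background and sets all arrays to 1 distribution, so a change shared by most genes would not show, and dim values are compressed. Samples were 17 arrays, made from 300 ng of total RNA, in 5 groups taken from the labels. Of 45141 probe sets 28898 carried 1 gene symbol in the platform annotation (551 several, 15588 none), and the brightest per gene gave 17097 genes. The 11625 genes with a group mean above the median of all values, 3.83, were tested in 1 limma fit (version 3.58.1, R 4.3.3) with a mean per group, two-sided, with Benjamini-Hochberg adjustment over all of them and a threshold of 0.05. The code was tested on simulated data.

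The members and all lists were chosen with earlier results of these data known. Values by array are given for the brightest gene of each role, the called gene of each role with the largest difference, the 3 largest rises and falls per comparison, and genes against their role. Of genes outside the members, context genes and the 2 largest called genes per list are named. Alternatives changed the probe sets, filter, scaling, groups fitted, moderation, array weights and replicate block, and left out arrays. Leaving out DN2-derived arrays 2, 4 and 5, and the tallies of group means without arrays, were chosen after seeing the data.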

Additional observations from a re-analysis of the deposited data

Results flagged for a closer look

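Single arrays stood apart in 4 of the 82 groups of 5 leukemia arrays checked, where chance flags about 1 in 20. In the DN2-derived leukemias array 3 was far above the others for Orc1, an origin recognition subunit, at 6.10 against 4.35 to 4.82, and for Pcna at 12.69 against 12.36 to 12.45. Array 5 was far below them for Rpa1, at 10.93 against 11.40 to 11.59. In the GMP-derived leukemias array 4 was far above the others for Lig1, at 10.12 against 9.09 to 9.23. These are arrays 3, 5 and 4 that were also highest or lowest for most members.

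The difference between leukemia and healthy cells was itself different between the DN2-derived and GMP-derived sides for E2f1, by -1.24 in the interaction test (limma adjusted p = 0.0451, over alternatives 0.000774 to 0.163).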

How the results depend on the processing

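No member changed direction while called. No median over the members moved by more than 0.60, the largest SD of the member mean within a group. The medians between leukemia groups, between the healthy groups and of the interaction are smaller than that. A change of sign in them could have passed this check. Without DN2-derived arrays 2, 4 and 5 the median of DN2-derived minus GMP-derived was -0.01. Without single arrays the medians ranged from -0.56 to -0.13 (DN2-derived minus GMP-derived), 0.26 to 0.52 (DN2-derived minus LSK-derived) and -0.73 to -0.32 (LSK-derived minus GMP-derived). They ranged from -1.66 to -1.42 (DN2-derived minus healthy DN2) and -1.45 to -1.05 (GMP-derived minus healthy GMP). Counts of called members were less stable, and the cause was not tested. With array weights they were 16, 26, 18 and 39 in the first 3 and the last of these comparisons, 1 between the healthy groups and 8 for the interaction. With only the groups compared they were 2 (LSK-derived minus GMP-derived), 7 (GMP-derived minus healthy GMP) and 7 (healthy groups). Without LSK-derived arrays 2 and 3 they were 3 against the DN2-derived and 0 against the GMP-derived in limma (7 at an unadjusted p under 0.05). Without DN2-derived arrays 2, 4 and 5 they were 4, 9 and 11 against the GMP-derived, LSK-derived and healthy DN2, and 0 for the interaction (2 unadjusted). Without DN2-derived arrays 1 and 3 they were 16 against the GMP-derived and 4 for the interaction. The interaction count was 0 (3 unadjusted) with no filter, with a further quantile normalization and with an intensity trend. Leaving out single arrays gave 7 to 16, 11 to 16, 2 to 12, 9 to 33 and 2 to 33 in the 5 comparisons, 0 to 0 between the healthy groups and 0 to 2 for the interaction. Deviations of same-numbered arrays from their group means correlated from -0.30 to 0.25 (6 of 25 pairs above 0.1). Differently numbered arrays were not set beside them, so this cannot decide whether the numbers pair arrays. With the replicate number as a block 15, 14, 9, 32 and 27 members were called, 0 between the healthy groups and 1 for the interaction, where E2f1 was no longer called. Signal near background (3.83) limits Orc1 in the LSK-derived arrays (3.71 to 4.63) and in GMP-derived array 1. The same holds for Orc1 in the DN2-derived arrays other than array 3 (4.35 to 4.82). It also holds for Cdc6, Mcm10 and Cdc45 in DN2-derived array 5 and for Ung in LSK-derived array 2.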
